A study of Mus musculus with 2 samples.

Results

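The neuronal microtubule and growth cone genes comprised 10 genes. They were the beta-tubulins Tubb3 and Tubb2b, the doublecortin family members Dcx and Dclk1, the structural microtubule-associated proteins Map1b, Map2 and Mapt, and the stathmins Stmn1, Stmn2 and Stmn3. They were chosen by name as probe sets that the platform annotation gives to a single one of these symbols, which took in 12 of the 28944 probe sets and 10 of the 19938 genes measured. The cells were neural precursor cells from the forebrain of Jcl:ICR mouse embryos at E11.5, expanded with FGF2 and EGF. They were infected either with a control retrovirus or with an HMGN1 retrovirus, were replated on poly-D-lysine after 3 days, and spent 1 further day without both growth factors before RNA was taken. HMGN1 is a nucleosome-binding protein of chromatin, and the comparison asks how extra HMGN1 bears on gene expression as precursors leave the growth factors. Each virus had 1 array, so no difference has a replicate check and no test between the viruses could be run. How many embryos were pooled, and whether infected cells were separated from uninfected ones, is not stated in the labels.

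Microtubules are polymers of alpha- and beta-tubulin. A young neuron builds its leading process and axon on them, and the growth cone at the axon tip steers by adding and removing tubulin. Doublecortin proteins and the structural microtubule-associated proteins bind and steady the polymer, while stathmins bind free tubulin and favour disassembly. Most of these genes are switched on or raised when a precursor becomes a neuron, which is why Tubb3, Dcx and Map2 are common markers of young neurons; Stmn1 is also used by dividing precursors.

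The 10 genes differed between the viruses in sign and in size, and all by little. With the HMGN1 virus the neuron-specific tubulin Tubb3 was the lowest of them, at an intensity of 422 against 476 with the control virus, and the neuronal stathmin Stmn2 was the highest, at 893 against 762. The other 8 lay between a log2 difference of -0.0062 and 0.12. No member differed 1.5-fold: 0 of 10 were higher and 0 of 10 lower by that size, beside 0.0% and 0.0706% of all 11325 detected genes. By a smaller size, a log2 difference of 0.32, the members again numbered 0 in each direction, where 0.494% of detected genes were higher and 0.521% lower. At any size 8 of 10 were higher and 2 lower, against 60.1% and 38.4% of detected genes. Centred on the median of detected genes, 7 were higher and 3 lower, while detected genes split evenly by construction. The median difference of the members was 0.046, beside 0.027 for all detected genes. In bulk RNA, fewer cells of a type and less RNA per cell cannot be told apart.

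Differences here are HMGN1 virus minus control virus of log2(intensity + 16), a scale that compresses the difference of dim genes. Intensities are the deposited linear values, which are set side by side for the same probe set only, since probes differ in how brightly they report. A gene counted as detected when the mean of both arrays was at or above an intensity of 85.9, the 95th percentile over 1035 probe sets of olfactory receptors, which brain precursors hardly use. All 10 members passed it through their brightest probe set. As a measure of scatter, probe sets of the same gene differed with an SD of 0.0891 over 683 genes, and the middle 95% of detected genes lay between -0.21 and 0.23. This scatter leaves out variation shared by a whole culture or array.

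**Figure D1:**
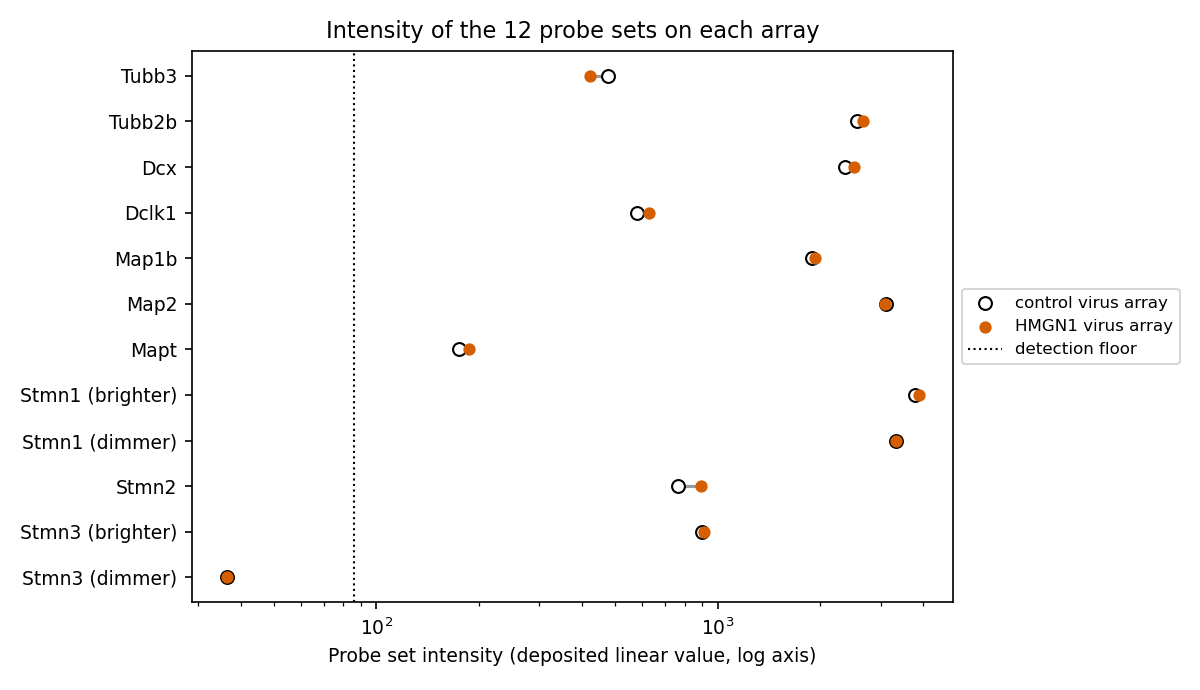
Intensity (horizontal, log axis) of each of the 12 probe sets on the control virus array (open circles) and the HMGN1 virus array (filled circles), 1 array per virus; the dotted line is the detection floor of 85.9. Tubb3 is the only probe set clearly to the left on the HMGN1 virus array, at 422 against 476, and Stmn2 has the widest shift to the right, from 762 to 893.

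Hmgn1, the gene on the virus, went from an intensity of 230 on the control array to 348 on the other. On the scale with the offset of 16, the log2 difference of 0.57 was 1.48-fold, short of the 1.5-fold size. The ratio of the linear intensities themselves, without the offset, passed that size. A higher difference was seen in 2 detected genes. The arrays had medians of 101 and 98.8 over all probe sets. Over all genes measured, 11325 of 19938 were detected. Of the markers of the labelled cell type, neural precursors, 12 of 12 were detected. All 14 of 14 neuron markers were detected too, so the cultures also held neuronal transcripts. Of these, Slc17a7 (80.2 and 94.0) and Slc17a6 (100 and 90.4) lay near the floor. Of the cell types from outside the neural lineage, 0 of 6 endothelial markers, 2 of 8 microglia and macrophage markers and 5 of 8 mesenchyme and pericyte markers reached the floor. The last 5 were Col1a1, Col1a2, Col3a1, Pdgfrb and Acta2, with 2 higher, 3 lower and a median of -0.039, and the summed intensity of that list was 805 with the control virus and 797 with HMGN1.

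The tubulins differed in direction. Tubb3 encodes the class III beta-tubulin of neurons, and its probe set read 476 under the control virus and 422 under HMGN1. The log2 difference was -0.17, a 1.12-fold lower level, and the value was 1.90 times the SD between probe sets of the same gene. Only 4.31% of detected genes had a lower difference. Tubb2b, a beta-tubulin abundant in migrating cortical neurons, had intensities of 2557 and 2661, a log2 difference of 0.057 that was within that SD. The gap between both tubulins was 0.23. A further probe set is annotated to Tubb2b together with Tubb2a and a Tubb2a pseudogene, so it stood outside the rule. It read 1304 and 1294, a log2 difference of -0.011. Probes for beta-tubulins can catch near-identical copies, so the Tubb2b values are uncertain in that respect.

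Both doublecortin family genes were higher with the HMGN1 virus, by little. Dcx encodes doublecortin, the microtubule-binding protein of migrating neuroblasts, and read 2353 and 2501, a log2 difference of 0.087. Dclk1, which encodes a related protein whose long form joins doublecortin domains to a kinase, read 579 and 631, a difference of 0.12. The Dclk1 difference was 1.36 times the SD between probe sets and the Dcx difference 0.980 times. Of all detected genes, 27.5% were higher than Dcx and 16.9% higher than Dclk1. Each gene had 1 probe set, so transcripts of Dclk1 from different starts could not be separated.

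The structural microtubule-associated proteins were near their control values. Map1b, an early protein of growing axons, read 1889 and 1934 (log2 difference 0.034). Map2, the main such protein of dendrites, read 3115 and 3101, a difference of -0.0062. Mapt encodes tau, which lines axonal microtubules, and read 175 and 186, a difference of 0.083. All 3 lay within the SD between probe sets, and Mapt lay closest to the detection floor, where scatter was larger: detected genes of its brightness had an SD of 0.114, against 0.0904 for those as bright as Map2. The sign of Map1b turned when the trend with gene span was removed (-0.019), and that of Map2 turned with quantile normalization (0.0049), so neither has a settled direction.

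Among the stathmins Stmn2 had the widest difference. Stmn2 encodes SCG10, a membrane-anchored stathmin of growth cones, and read 762 under the control virus and 893 under HMGN1. The log2 difference of 0.22 was a 1.17-fold higher level and 2.51 times the SD between probe sets, and 2.64% of detected genes had a higher difference. Stmn1, the cytosolic stathmin of precursors and young neurons, read 3794 and 3878 on its brighter probe set and 3329 and 3339 on its other, with differences of 0.031 and 0.0042. Centred on the median of detected genes these were 0.0040 and -0.023, so the direction of Stmn1 is not settled. Stmn3, a further neuronal stathmin, read 902 and 910, a difference of 0.012 that turned negative under 3 of the scalings described in the closing section. Its second probe set, annotated to a single transcript record, lay below the floor at 36.5 and 36.4. The gap between Stmn2 and Stmn3 was 0.21, almost as wide as that between both tubulins.

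**Figure D2:**
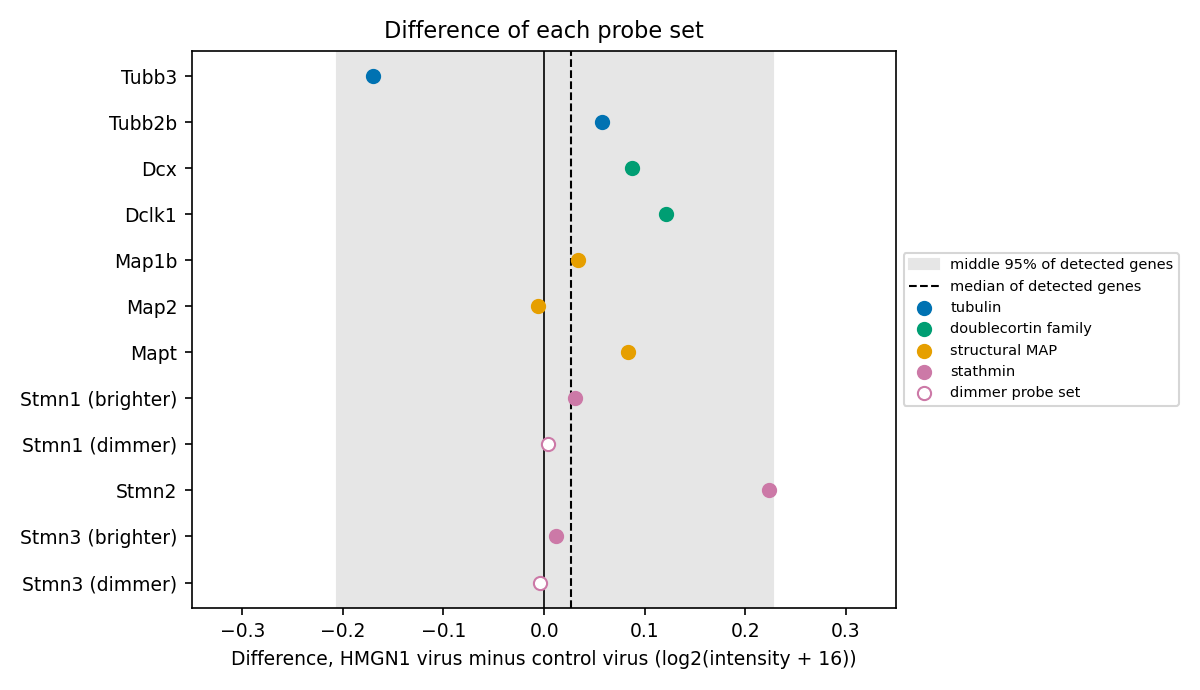
Difference of each probe set (horizontal, HMGN1 virus minus control virus, log2(intensity + 16)), coloured by role; open circles are the dimmer probe sets of Stmn1 and Stmn3, the shaded band is the middle 95% of detected genes (-0.21 to 0.23) and the dashed line their median (0.027). All 12 probe sets lie within the band, Stmn2 (0.22) and Tubb3 (-0.17) nearest its edges.

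Tubb3 and Stmn2, which are both used as markers of young neurons, were 0.39 apart on the log2 scale in these 2 RNA samples. Under the other ways of processing Tubb3 ranged from -0.21 to -0.15 and Stmn2 from 0.18 to 0.23. Their signs were the same under all 7 alternatives run on single genes. The offsets could not turn a sign, and averaging of probe sets left both values unchanged because each gene had a single probe set. All alternatives rescale the same pair of arrays, so they are no replicate check. As reported, both lay within the middle 95% of detected genes, whereas with an offset of 64 Stmn2 lay above 98.7% of them, outside that range. Without them the remaining 8 members ran from -0.0062 to 0.12, with 7 of 8 higher and the same median of 0.046.

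**Figure D3:**
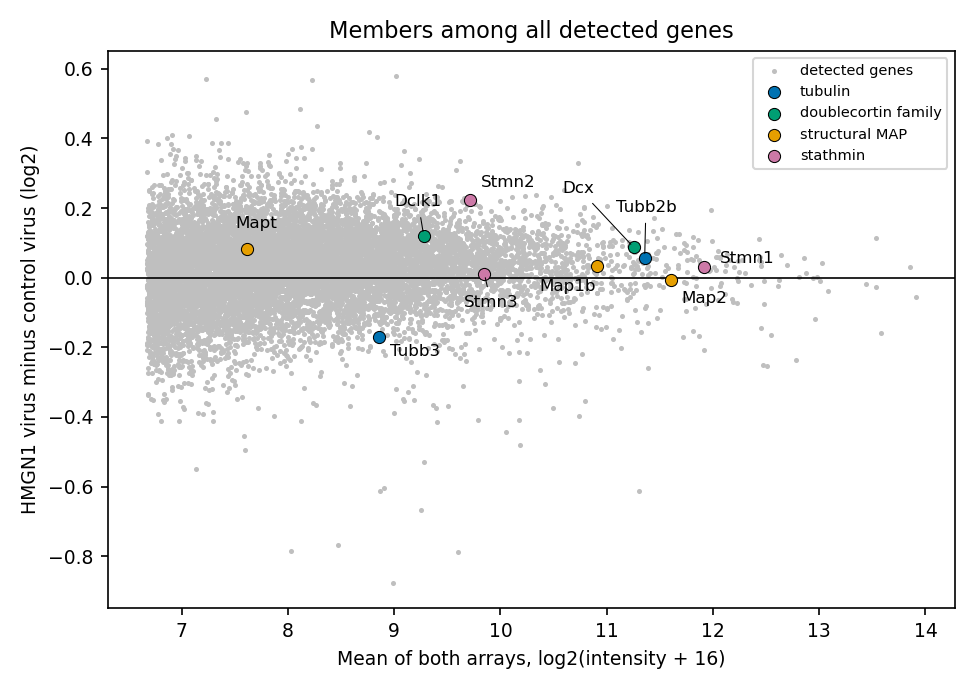
Difference (vertical, HMGN1 virus minus control virus, log2) against the mean of both arrays (horizontal, log2(intensity + 16)) for 11325 detected genes (grey) and the 10 members (coloured by role). Most members sit in the bright right-hand part, where grey points spread least; Tubb3 (-0.17) lies toward the lower side of the cloud and Stmn2 (0.22) toward the upper.

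Gene span, the length of the annotated gene with its introns, also moved with the differences. Across 10880 detected protein-coding genes, which are not independent replicates, longer genes were higher, with a Spearman's rho of 0.23 between span and difference. Among the members rho was 0.26 (n = 10 genes on the same pair of arrays), 0.15 without Tubb3 and 0.30 without Stmn2. Tubb3 spans 10.5 kb and Stmn2 52.1 kb, while Dclk1, at 297 kb, and Map2, at 267 kb, are the longest. Tubb2b is the shortest, at 3.35 kb. With the span trend removed Tubb3 was at -0.18, Stmn2 at 0.18, Dclk1 at 0.068 and Dcx at 0.037.

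Promoter windows of the members were read from RefSeq's sequences for GRCm38.p6, each from 250 bases before to 50 after an annotated start. Of the 10 members 6 had a window, with 8 windows in all; Tubb2b, Mapt, Stmn1 and Stmn2 had none in the table used. The windows of Tubb3, the lowest member, and of Dclk1, the highest member with a window, are shown with that of Dcx, the relative of Dclk1, so that the regions at opposite ends of the differences can be compared. Capitals mark the E-box letters CANNTG, the core bound by the basic helix-loop-helix factors of neuronal commitment. All read 5′ to 3′ along the gene's strand.
Tubb3, chr8:123411303-123411602, plus strand: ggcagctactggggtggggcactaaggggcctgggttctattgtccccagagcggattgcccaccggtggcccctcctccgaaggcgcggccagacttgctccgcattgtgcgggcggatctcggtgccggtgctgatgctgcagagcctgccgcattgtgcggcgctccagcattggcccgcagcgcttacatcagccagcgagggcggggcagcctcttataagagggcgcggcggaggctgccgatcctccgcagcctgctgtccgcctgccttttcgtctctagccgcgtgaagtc
Dclk1, first start, chr3:55242114-55242413, plus strand: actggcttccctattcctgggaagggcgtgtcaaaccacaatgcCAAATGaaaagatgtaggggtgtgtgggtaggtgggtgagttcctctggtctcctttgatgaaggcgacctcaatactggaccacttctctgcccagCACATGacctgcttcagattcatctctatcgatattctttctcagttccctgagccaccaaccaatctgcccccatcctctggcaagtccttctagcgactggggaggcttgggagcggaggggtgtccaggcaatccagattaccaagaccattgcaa
Dclk1, second start, chr3:55461478-55461777, plus strand: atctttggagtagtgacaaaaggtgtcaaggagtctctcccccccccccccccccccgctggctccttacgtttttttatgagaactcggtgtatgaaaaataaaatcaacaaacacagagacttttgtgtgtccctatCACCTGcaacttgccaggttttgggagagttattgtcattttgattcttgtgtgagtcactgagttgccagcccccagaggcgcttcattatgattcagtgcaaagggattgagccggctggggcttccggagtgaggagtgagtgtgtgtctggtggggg
Dcx, chrX:143933170-143933469, minus strand: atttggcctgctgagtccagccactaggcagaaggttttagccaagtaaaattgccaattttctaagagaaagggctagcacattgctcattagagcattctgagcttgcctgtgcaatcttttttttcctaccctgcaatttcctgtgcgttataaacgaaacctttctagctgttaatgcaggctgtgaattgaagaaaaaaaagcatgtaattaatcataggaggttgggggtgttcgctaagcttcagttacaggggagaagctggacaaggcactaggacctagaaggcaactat

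The Tubb3 window held 0 matches to CANNTG, as did both overlapping Dcx windows, whereas the Dclk1 windows held 2 and 1. Of all 8 member windows 4 held a match, beside 72.3% of 32851 windows of the same length in the table. The E-box CAGCTG, a subset of CANNTG, was in 0 of 8 windows and in 16.3% of all windows. The GC box GGGCGG, searched on both strands, was in 3 of 8 (Tubb3, Map1b and Map2) and in 35.7% of all. The TATA letters TATAAA, searched on both strands, were in 3 of 8, of which the Dcx windows share the same match, and in 13.6% of all. The Tubb3 window was 67.3% G or C and the first Dclk1 window 52.7%, beside a median of 52.7% over all windows. These matches describe letters and carry no information on which factors were bound, and no array value here bears on a promoter directly.

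The rest of the microtubule machinery was likewise close to its control values. The base for these lists and those below is all detected genes, of which 60.1% were higher, with a median of 0.027. Of 15 other tubulin genes 12 were measured and 10 detected, with 6 higher, 4 lower and a median difference of 0.036 (5 and 5 after centring). Tubb4a, a beta-tubulin of brain including oligodendrocytes, was highest (1089 and 1284, 0.23), and Tuba4a was next (87.8 and 96.0, 0.11). Tubb1 (116 and 103, -0.14) and Tube1, the epsilon-tubulin of centrioles (145 and 131, -0.14), were lowest. Tuba4a and Tubb1 lay near the floor of 85.9. Tuba1b, Tuba1c and Tubb4b had no probe set with a single symbol.

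Genes that fold or modify tubulin had a median of 0.052 over 20 detected genes, with 14 higher and 6 lower (11 and 9 with the intensity or the span trend removed). Tbcb, a tubulin folding cofactor, had the largest difference of all the microtubule genes examined, at 248 and 325 (0.37), and was the only one past a difference of 0.32. Ttll1, part of a tubulin polyglutamylase, differed by 0.18. Tbca, another folding cofactor, differed by -0.090 and the polyglutamylase Ttll7 by -0.052, although a second, dimmer probe set of Ttll7 gave 0.25.

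The other microtubule-associated proteins had a median of 0.067, with 21 higher and 10 lower among the 31 detected of 33 listed, and 17 and 14 with the intensity or the span trend removed. Camsap2, which binds microtubule minus ends, read 1299 and 1529 (0.23), and Ndel1, a dynein regulator of neuronal migration, read 198 and 235 (0.23). Tppp3 (136 and 116, -0.20) and the plus-end binding protein Mapre3 (572 and 516, -0.15) were lowest. The 4 detected of 7 measured severing genes were all higher, from Fignl1 (0.031), through spastin's gene Spast (0.11) and Katnal1 (0.16), to the katanin subunit Katna1 (243 and 291, 0.25). Without the detection filter 4 of 7 were higher and 3 lower, with a median of 0.031 in place of 0.14. Kinases and phosphatases that act on these proteins had a median of 0.065 over 18 detected genes, 14 of them higher (11 with the span trend removed). They ran from Cdk5r2, an activator of Cdk5 (-0.15), and Gsk3a (-0.046) to the phosphatase subunit Ppp2r2b (0.13) and Gsk3b (0.13).

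Growth cone genes went both ways. Of 28 listed 27 were detected, with 16 higher, 11 lower and a median of 0.011, below that of all detected genes. The count depended on scaling, with 9 higher and 18 lower once the span trend was removed, when 50.2% of all detected genes were higher. Shtn1, whose product shootin couples actin flow to adhesion, was highest at 155 and 194 (0.29). Gap43, the growth-associated protein of axons, followed at 328 and 379 (0.20). The adenylyl cyclase-associated protein gene Cap2 (315 and 269, -0.21) and Marcksl1, an actin-regulating membrane protein (2249 and 1988, -0.18), were lowest. The list of neurofilaments and internexin had 3 of 5 genes detected, Nefl at 0.057, Ina at -0.015 and Nefh at -0.035. A second, dimmer probe set of Ina (875 and 823) gave -0.087. Nefl (121 and 127) and Nefh (110 and 107) were dim, beside a floor of 85.9. Neither Nefm nor Prph reached the floor.

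**Figure D4:**
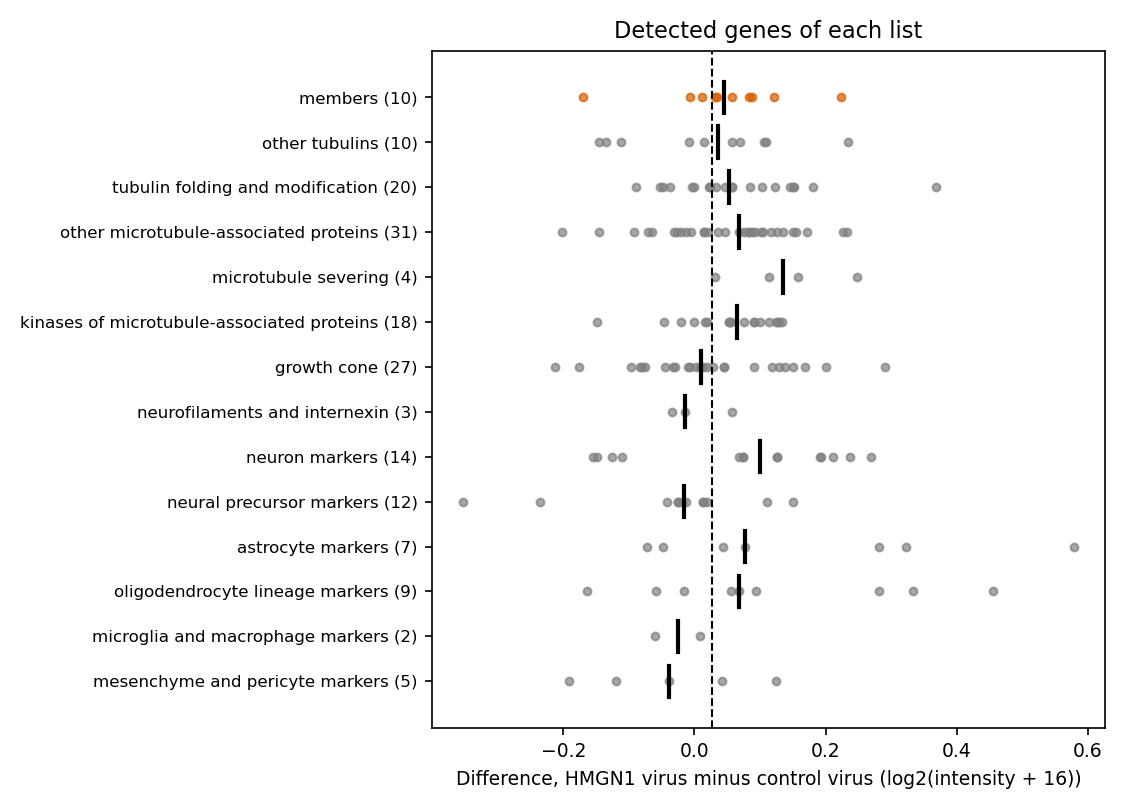
Differences (horizontal, HMGN1 virus minus control virus, log2(intensity + 16)) of the detected genes of each list, number detected in parentheses; points are genes, black bars the list medians and the dashed line the median of all detected genes (0.027). The members (top) span -0.17 to 0.22 around a median of 0.046, and the neighbouring microtubule lists overlap them.

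Markers of the cell types that could carry these transcripts are given beside the members. Among all detected genes 60.1% were higher and 38.4% lower, with a median of 0.027. With the span trend removed 50.2% were higher, and after centring they split evenly by construction. Of 14 neuron markers 10 were higher and 4 lower, with a median of 0.10 and a summed intensity of 5523 on the control array and 5874 on the HMGN1 array. The 4 lower ones were Rbfox3 (-0.15), Neurod1 (-0.15), Slc17a6 (-0.13) and Elavl4 (-0.11), and the highest was Syt1 (0.27). Neuron markers therefore lay on both sides of 0, as Tubb3 and Stmn2 did. Of 12 precursor markers 5 were higher and 7 lower, or 2 and 10 after centring (median -0.016, summed intensity 26667 and 26542), and Sox1 was lowest at 601 and 467 (-0.35). Of 7 detected astrocyte markers 5 were higher, or 4 with the span trend removed (median 0.077, summed 3588 and 3866 over 8 genes), and of 9 detected oligodendrocyte lineage markers 6 were higher, or 7 with the span trend removed (median 0.068, summed 6959 and 7180 over 10 genes). The 5 glial markers with the widest differences were all higher: Gfap read 406 and 615 (0.58), Enpp6 121 and 172 (0.46), Gpr17 686 and 869 (0.33), Aqp4 187 and 237 (0.32) and Gja1 341 and 419 (0.28). The 2 lower astrocyte markers were Aldoc (-0.072) and Fgfr3 (-0.048). The 3 lower oligodendrocyte lineage markers were Olig2 (-0.16), Cspg4 (-0.059) and Olig1 (-0.016), and 4.62% of detected genes had a lower difference than Olig2. Past a difference of 0.32 lay 2 astrocyte and 2 oligodendrocyte lineage markers, all higher, and 1 precursor marker, lower, against 0 of 14 neuron markers. Of all detected genes 0.494% were higher and 0.521% lower by that size, so 0 of 14 is near the share of all genes. Aqp4, at 0.3229, only just passed the cut of 0.3219. No marker was listed at 0. The part of these shifts in the differences of the members was not tested.

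**Figure D5:**
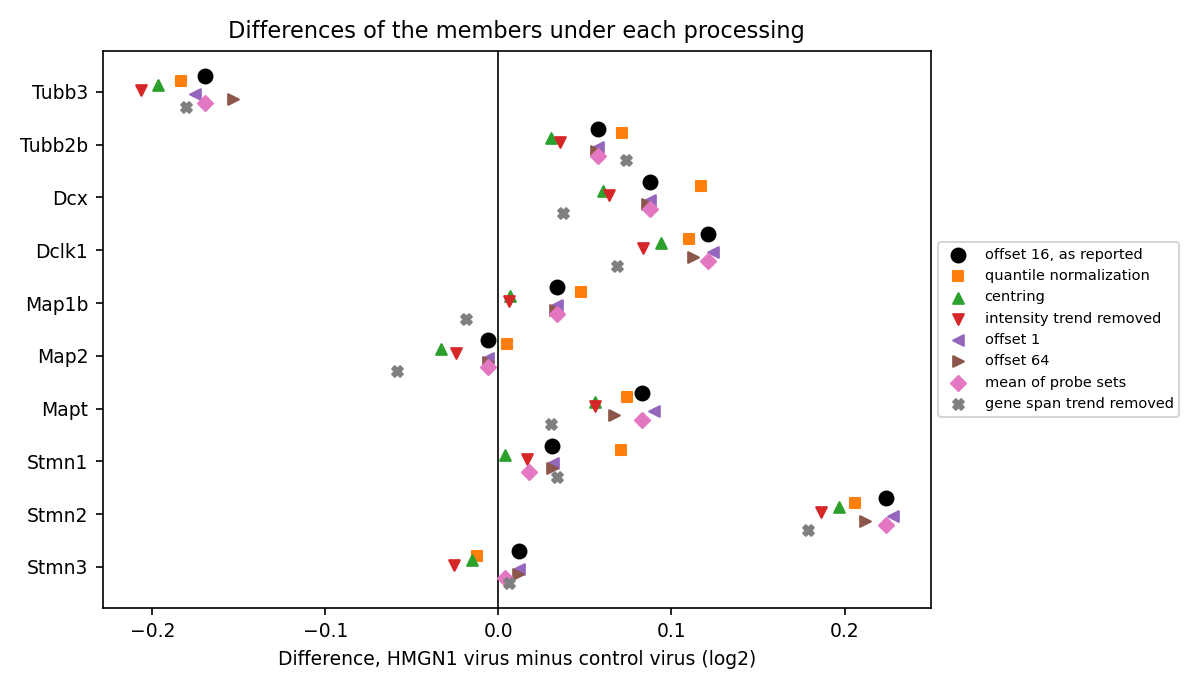
Difference of each member (horizontal, HMGN1 virus minus control virus, log2) as reported with an offset of 16 (black) and under 7 alternatives. Tubb3 lies below 0 and Stmn2, Dclk1, Dcx, Mapt, Tubb2b and Stmn1 above 0 under all of them, while Map1b, Map2 and Stmn3 fall on both sides. The dimmer Stmn1 probe set, drawn only within the average of probe sets, was at -0.023 after centring. The offsets cannot turn a sign, and averaging of probe sets leaves genes with a single probe set unchanged.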

How the data were processed

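RNA from each of 2 cultures was labelled with biotin (GeneChip WT kit, per the labels' protocols) and read on 1 array per virus. The deposited table holds 1 intensity per probe set and array as a linear value; the authors' background correction, scaling and summary of probes are not given in the sources used here. Gene symbols came from GEO's platform annotation (21789 probe sets with 1 symbol, 1621 with several, 5534 unnamed here), and 21698 matched the RefSeq table of GRCm38.p6 by gene number, which changed 0 symbols and supplied gene span. A gene took its brightest probe set. Values were log2(intensity + 16) without further scaling. With 1 array per group no test was run; genes are described by size (1.5-fold) beside all detected genes. The number of arrays limits the precision. The named genes were all members, Hmgn1 and the 2 highest and 2 lowest detected genes of each of 7 microtubule and growth cone lists; markers came from 7 further lists. Other genes were named after their values were seen. Likeness of pattern was not computed, since 2 arrays give 1 difference per gene. The members and lists were chosen with earlier results of these data known. The code (Python 3.11.15, numpy 2.4.6, pandas 2.3.3, statsmodels 0.14.6) was tested on simulated data. The alternatives were centring, quantile normalization, loess removal of the intensity or gene span trend (span 0.3), offsets of 1 and 64, averaging of a gene's probe sets, other floors and other sizes.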

Additional observations from a re-analysis of the deposited data

How the results depend on the processing

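The counts of members by size, 0 higher and 0 lower by 1.5-fold, were also 0 under each alternative run, sizes of 2-fold and of a log2 difference of 0.32 included. These counts say little about stability. As reported, with the offset of 16, 0.0% of detected genes were 1.5-fold higher and Hmgn1 itself reached 1.48-fold. Without an offset the intensities of Hmgn1 passed 1.5-fold. The 2-fold counts follow from those at 1.5-fold. The members higher at any size numbered 7 or 8, and their median ran from 0.018 (centring) to 0.071 (quantile normalization). In 70 alternative values no member's difference moved further than 0.0891, the scatter between probe sets of a gene, but Stmn3 ranged from -0.025 to 0.012, Map1b from -0.019 to 0.048 and Map2 from -0.059 to 0.0049. Stmn3 was negative with quantile normalization, centring and the intensity trend removed. Of 13 list medians 4 took both signs over the alternatives: growth cone (-0.033 to 0.024), neurofilaments and internexin (-0.042 to 0.021), neural precursor (-0.043 to 0.0016) and mesenchyme (-0.067 to 0.047). The cause was not tested. Among named genes outside the members, Ttll7 changed sign, to 0.096 as the mean of its probe sets. Leaving out a replicate was not possible. No paired analysis was possible because a single array per virus leaves nothing to pair. Low signal limits Mapt most among the members.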
